A study of Mus musculus with 7 samples.

Results

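Lysosomes digest proteins, glycans, lipids and nucleic acids in an acidic lumen. Their enzymes are made in the endoplasmic reticulum, most are tagged with mannose 6-phosphate in the Golgi, and the vacuolar proton pump (V-ATPase) keeps the lumen acidic. TFEB, TFE3 and MITF are related transcription factors of the MiT/TFE family, which bind the E-box letters CACGTG, best known in lysosomal promoters within the longer CLEAR element. The mTORC1 kinase on the lysosome surface controls how much of TFEB and TFE3 enters the nucleus, so the mRNA of these factors is not a measure of their activity.

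The lysosome genes described here were taken by name from a list of 52 names in the deposited table of 35727 genes: the 3 MiT/TFE factors, proteases, other hydrolases and their activators, membrane proteins and proton pump genes. Of these names, 51 had a row; the remaining name, Limp2, is another name of Scarb2, which is on the list too. Of the 51 genes, 50 passed the filter on low counts and were tested, while Ctsf, a cysteine cathepsin, was too low (0.105 ± 0.05802 CPM in the Vgll3 and 0.3998 ± 0.372 CPM in the Ccne1 libraries).

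The data were polyA RNA-seq counts of RFP+ sarcoma cells sorted from mouse tumours of 2 models of undifferentiated pleomorphic sarcoma, 3 libraries of the p53KO Vgll3 OE line and 4 of the p53KO Ccne1 OE line. Both lines began as mesenchymal stem cells of female p53KO C57/Bl6 mice, carried a retroviral vector for Vgll3 (a cofactor of TEAD transcription factors) or Ccne1 (cyclin E1), were grown 2 times in succession under the skin of female wild-type mice, and were then transplanted again to form the sampled tumours. Each model is 1 tumour line and neither has an unmodified control, so the vector's gene and other differences between the lines cannot be told apart. Whether replicate libraries are separate tumours or mice is unstated, so a p-value here reflects variation among libraries, part of which may be technical. The sources used here give neither the age of the mice nor the promoter of the vectors.

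Library totals ran from 21725890 to 53610300 counts. Levels are CPM (counts relative to library size, scaled between libraries by TMM), given as mean ± SD with n = 3 Vgll3 and n = 4 Ccne1 libraries, or for replicates 1 to 3 and 1 to 4 in turn. Vgll3 was 4.96-fold higher in the libraries labelled Vgll3 (edgeR adjusted p = 1.2e-05), but Ccne1 was 12.7, 15.1 and 16.97 CPM in the libraries labelled Vgll3 and 6.73, 9.24, 18.3 and 16.7 CPM in those labelled Ccne1 (edgeR adjusted p = 0.609), so the groups are called by their labels. Gene-level Trp53 mRNA was present in every library of these p53KO lines, at 70.7 ± 4.32 CPM in Vgll3 and 66.4 ± 2.69 CPM in Ccne1 libraries (edgeR adjusted p = 0.298), and gene-level counts do not show whether these transcripts are intact. The mesenchymal genes Vim (4375 ± 238 CPM in Vgll3 and 13973 ± 1413 CPM in Ccne1 libraries) and Col1a2 (17309 ± 2673 CPM in Vgll3 and 4197 ± 463 CPM in Ccne1 libraries) were abundant in every library. Vgll3 replicate 3 stood apart: across genes it correlated with the other Vgll3 libraries at Pearson r of 0.959 and 0.963, where the remaining same-model pairs had 0.980 to 0.988. Its 8 endothelial markers summed to 232 CPM, the highest of the 7 libraries, but Pecam1 alone gave 184 CPM of that, and Ccne1 replicate 1 was higher than it for Cdh5 and Vwf among others.

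Most lysosome genes were lower in the Vgll3 libraries. Of 50 tested, 33 fell and 6 rose at an edgeR adjusted p of 0.05, while over all 13740 genes tested 26.8% were called lower and 25.1% higher. The counts of smaller groups and of neighbouring lists below are to be read against these shares. The median log2 fold change, Vgll3 over Ccne1, was −0.59 over the lysosome genes and 0.01 over all genes. A fall of at least 2-fold was called for 11 lysosome genes and a rise of that size for 4, against 7.49% and 9.20% of all genes. The groups did not overlap for 38 of the 50 genes, against 55.7% of all genes (29.0% with Vgll3 lower and 26.8% with Vgll3 higher). The 51 genes together had 5735, 5278 and 5588 CPM in the Vgll3 libraries and 10880.1, 12275, 11949 and 11413 CPM in the Ccne1 libraries, so the Vgll3 sums were all below the lowest Ccne1 sum. A large part of this difference was in Ctsl (517 ± 78.8 CPM in Vgll3 and 2987 ± 173 CPM in Ccne1 libraries) and Ctsb (564 ± 27.6 CPM in Vgll3 and 1685 ± 62.9 CPM in Ccne1 libraries). In bulk RNA, fewer cells of a type and less RNA per cell cannot be told apart. Without Vgll3 replicate 2, 3 lysosome genes were called higher and 30 lower; without Vgll3 replicate 3, the counts were 4 and 33.

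**Figure D1:**
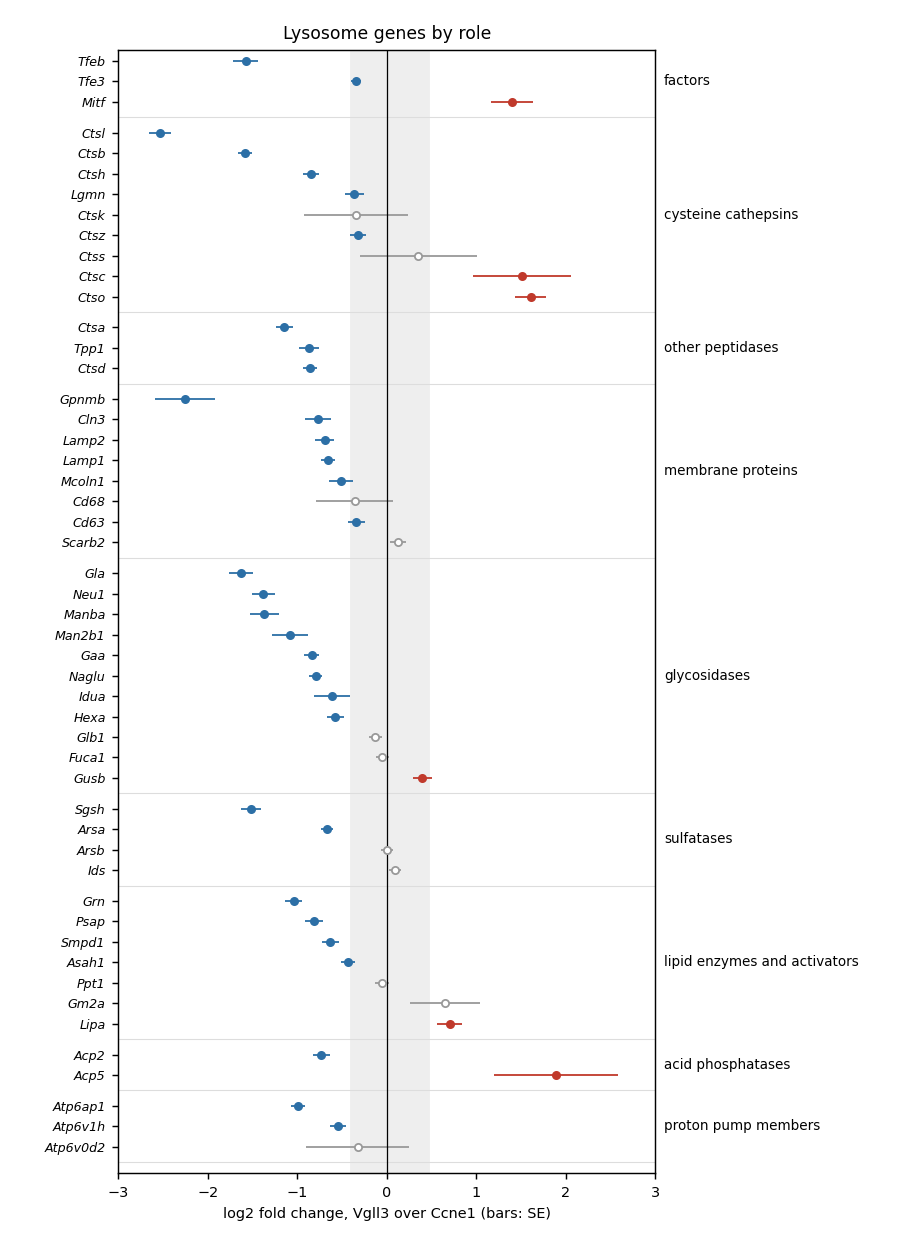
Log2 fold change, Vgll3 over Ccne1, with its SE (bars) for the 50 tested lysosome genes, grouped by role; filled blue points were called lower in Vgll3, filled red points higher, open grey points were not called, and the grey band spans the middle quartiles of all 13740 genes. Of the genes, 33 lie left of 0 in blue and 6 right of it in red.

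The 3 transcription factors split. Tfeb (ENSMUSG00000023990, chromosome 17, 47737030 to 47792419, mm10) had 3.07, 2.91 and 3.51 CPM in the Vgll3 libraries and 8.69, 9.41, 10.2 and 9.37 CPM in the Ccne1 libraries. It was 2.98-fold lower in Vgll3, −1.58 on the log2 scale (SE 0.14, edgeR adjusted p = 3.6e-05), and no Vgll3 library came near the lowest Ccne1 library. Tfe3 (ENSMUSG00000000134, chromosome X, 7762560 to 7775202) was more abundant, with 62.5, 62.1 and 60.4 CPM in the Vgll3 libraries and 77.4, 78.6, 79.2 and 77.5 CPM in the Ccne1 libraries. Its fall was small but larger than the spread (1.27-fold, log2 fold change −0.34, SE 0.06, edgeR adjusted p = 0.00115). Mitf (ENSMUSG00000035158, chromosome 6, 97807052 to 98021349), best known as the regulator of melanocytes and osteoclasts, went the other way. It had 7.82, 8.92 and 6.39 CPM in the Vgll3 and 3.55, 3.29, 2.97 and 1.85 CPM in the Ccne1 libraries, a 2.64-fold rise with groups that did not overlap (log2 fold change 1.40, SE 0.24, edgeR adjusted p = 0.00112).

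Per kilobase of merged exons, Tfe3 stood highest of the 3 factors in both models, at 6.66 CPM per kb in the Vgll3 and 8.44 CPM per kb in the Ccne1 libraries. Mitf was next in the Vgll3 libraries, at 1.24 CPM per kb, above Tfeb at 0.558. In the Ccne1 libraries the order of these 2 was turned, with 0.471 CPM per kb for Mitf and 1.66 for Tfeb. Whole chromosomes differed between the models in the median log2 fold change over all tested genes. The median was −0.33 over chromosome 17, which holds Tfeb and Neu1. Chromosome 11, with −0.30, holds Gaa, Naglu, Sgsh and Grn, and also Cd68 and Gm2a, which were not called. The median was 0.39 over chromosome 6, which holds Mitf and Gpnmb. It was 0.44 over chromosome 4, which holds Fuca1, Ppt1 and Atp6v0d2, all not called. The part of these chromosome shifts in the values of single genes was not tested.

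The promoter letters of the list are shown because the MiT/TFE factors bind them. RefSeq promoter windows (GRCm38.p6, 250 bases before to 50 bases after the start) were matched by symbol for 46 of the 51 lysosome genes. Asah1, Atp6v0d2, Atp6v1h, Ctsb and Ctsh had no window and are in neither group of the E-box comparison below. All of them but Atp6v0d2 were called lower in Vgll3. The E-box CACGTG, which reads the same on both strands, was present in at least 1 window of 14 of these 46 genes (30.4%), against 8.09% of the 27025 genes with a window and 11.4% of the 10015 of them that were tested here. There were 22 such E-boxes in the 14 genes, 15 of them within 100 bases of the start. In 20 of the 22 the E-box lay inside TCACGTG on either strand, letters that hold for 12 of the 46 lysosome genes (26.1%) and for 4.29% of all genes with a window (6.87% of those tested). The longer GTCACGTG on either strand was found in 11 of the 46 (23.9%) and in 2.55% of all genes (4.68% of those tested), and the palindrome that GTCACGTG forms with its own complement, in capitals in the line for Cln3, in 1 of the 46 (2.17%) and in 0.370% of all genes (0.779% of those tested). These strings are nested, each longer one holding the shorter ones. TCATGTG on either strand, the letters of the M-box known for MITF, was in 8 of the 46 (17.4%) and in 4.31% of all genes (2.62% of those tested). MYC and USF factors bind the E-box too, and a match is a description of the letters only.

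The lines below give the E-boxes of genes with different responses, 5′ to 3′ along the gene's own strand, with the longest matching string in capitals (CACGTGAC, as in Sgsh, is GTCACGTG read on the other strand). Lamp1 is shown as 1 stretch, because its window held the most E-boxes of the list, and only the 6 letters of each of its 4 E-boxes are in capitals there.
Lamp1 (chr8:13159094-13159157, plus strand): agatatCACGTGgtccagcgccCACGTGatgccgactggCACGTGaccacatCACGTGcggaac
Cln3 (chr7:126583340-126583369, minus strand): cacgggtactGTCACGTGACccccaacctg
Gla (chrX:134601182-134601211, minus strand): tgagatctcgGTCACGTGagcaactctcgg
Sgsh (chr11:119355522-119355551, minus strand): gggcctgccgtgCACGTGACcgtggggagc
Ctsa (chr2:164833749-164833778, plus strand): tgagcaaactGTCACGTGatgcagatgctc
Mcoln1 (chr8:3500436-3500465, plus strand): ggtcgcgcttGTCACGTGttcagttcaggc
Ctsl (chr13:64370739-64370768, minus strand): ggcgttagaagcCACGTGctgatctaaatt
Glb1 (chr9:114401018-114401047, plus strand): ctgcttctgaGTCACGTGgcctacagaggc
Of these 8 genes, 7 fell in the Vgll3 libraries. The exception is Glb1, whose E-box has the same 8 letters as the one shown for Gla, and which was not called. Ctsl had the largest fall of the list, with an E-box that lacks the flanking T of the other 7 and lies 236 bases before the RefSeq start. This E-box is inside the gene bounds given for Ctsl below (64359337 to 64370890), so the distance depends on the start used. The E-boxes shown for Cln3 and Ctsa also lie inside the bounds of their genes (126571207 to 126585817 and 164832873 to 164841032). Another RefSeq window of Ctsa held 0 E-boxes.

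Of the 13 tested lysosome genes with an E-box in the window, 12 were called lower and 0 higher, with a median log2 fold change of −0.80. Of the 32 tested with a window and no E-box, 17 were called lower and 6 higher, with a median of −0.34. Across all tested genes with a window, 34.4% of the 1145 with an E-box and 28.5% of the 8870 without were called lower, and 20.6% and 25.8% were called higher. For GTCACGTG, 39.7% of the 469 genes with it and 28.7% of the 9546 without were called lower. Mitf, Ctso, Gusb, Lipa, Ctsc and Acp5, the 6 lysosome genes called higher, had no E-box in their windows, and neither did Tfeb and Gpnmb, which fell.

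**Figure D2:**
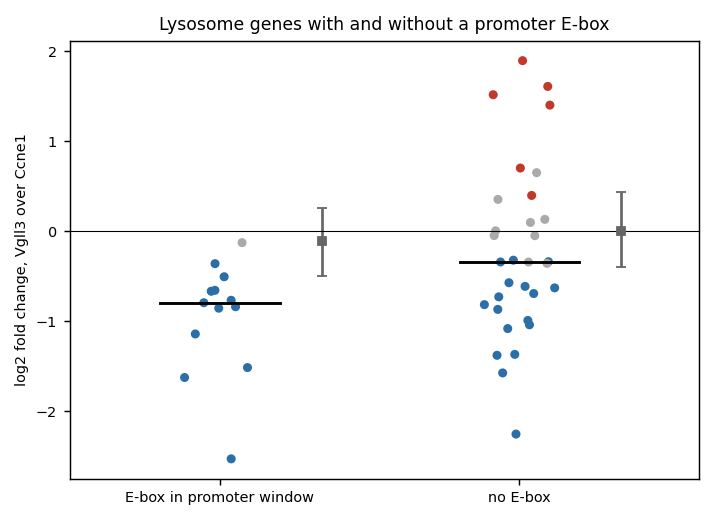
Log2 fold change, Vgll3 over Ccne1, of tested lysosome genes with an E-box in the promoter window (left, 13 genes) and without one (right, 32 genes); blue points were called lower in Vgll3, red higher, grey not called, and black lines are medians. Grey squares with bars are the median and quartiles of all tested genes with and without the E-box, which had medians of −0.11 and 0.00 and lie above the medians of the lysosome genes.

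Cysteine cathepsins are papain-like proteases, and the list adds legumain, the asparaginyl endopeptidase that processes several of them. Of 9 tested, 5 fell and 2 rose, beside 26.8% called lower and 25.1% called higher over all genes tested. Ctsl (cathepsin L, ENSMUSG00000021477, chromosome 13, 64359337 to 64370890) had the largest fall of the whole list, with 599, 442 and 510.3 CPM in the Vgll3 libraries and 2819, 3176, 3089 and 2865 CPM in the Ccne1 libraries. It was 5.78-fold lower in Vgll3 (log2 fold change −2.53, SE 0.12, edgeR adjusted p = 3.05e-06), far beyond the spread of either group. Ctsb (cathepsin B, ENSMUSG00000021939, chromosome 14, 63122462 to 63145923) had 593, 538 and 562 CPM in the Vgll3 and 1599, 1749.8, 1699 and 1693 CPM in the Ccne1 libraries, a 2.99-fold fall (log2 fold change −1.58, SE 0.08, edgeR adjusted p = 3.76e-06). Of its exon bases, 12.8% overlap Fdft1 on the other strand, and the strand setting of the counting is not known. The same holds for Ctsl, 26.9% of whose exon bases overlap Gm47123 on the other strand. Ctsh, an aminopeptidase, fell 1.796-fold to 21.9 ± 0.783 CPM in the Vgll3 libraries, against 39.4 ± 3.63 CPM in the Ccne1 libraries (edgeR adjusted p = 9.41e-05). The carboxypeptidase gene Ctsz and the legumain gene Lgmn fell by 0.32 and 0.36 on the log2 scale (edgeR adjusted p = 0.0165 and 0.0193). Both were close to the threshold: Ctsz was not called without Vgll3 replicate 2 (edgeR adjusted p = 0.0564) or 3 (0.0504), and Lgmn not without Vgll3 replicate 1 (0.0595) or 2 (0.0631).

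Ctso (cathepsin O, ENSMUSG00000028015, chromosome 3, 81932601 to 81956725) rose, with 24.4, 24.7 and 25.4 CPM in the Vgll3 and 5.51, 10.05, 8.42 and 8.39 CPM in the Ccne1 libraries. The 3 Vgll3 libraries were nearly equal and all above the highest Ccne1 library (3.05-fold, log2 fold change 1.61, SE 0.17, edgeR adjusted p = 9.41e-05). Ctsc, the dipeptidyl peptidase that activates granule serine proteases of immune cells, was low and its groups overlapped: it had 1.61, 3.36 and 3.35 CPM in the Vgll3 and 1.91, 0.924, 0.774 and 0.291 CPM in the Ccne1 libraries. It was called higher (log2 fold change 1.52, edgeR adjusted p = 0.0437), but the call was lost on omitting any one of Ccne1 replicates 2, 3 and 4 and Vgll3 replicates 2 and 3 (edgeR adjusted p 0.0653 to 0.123). The call was lost too with the replicate number as a block (edgeR adjusted p = 0.145). Ctsk, the collagen-degrading cathepsin of osteoclasts and fibroblasts, was 1.77 ± 1.41 CPM in the Vgll3 and 2.26 ± 1.16 CPM in the Ccne1 libraries. Ctss, the cathepsin of antigen-presenting cells, was 1.39 ± 0.631 CPM in the Vgll3 and 1.103 ± 0.996 CPM in the Ccne1 libraries. Neither was called (edgeR adjusted p = 0.644 and 0.676). The log2 fold change of Ctsk, −0.34 with all libraries, was 0.04 without Ccne1 replicate 1 or Vgll3 replicate 2, and that of Ctss, 0.35, was −0.05 without Vgll3 replicate 3.

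The make-up of the cathepsin mRNA pool differed with these changes. Summed per kilobase over the 10 genes of this group, cathepsin and legumain mRNA was 353, 309 and 332 CPM per kb in the Vgll3 libraries and 905, 968, 969.6 and 901 CPM per kb in the Ccne1 libraries. Ctsl held 24.0% ± 2.09 of this sum in the Vgll3 and 49.2% ± 1.07 in the Ccne1 libraries. Ctsz held 31.4% ± 1.49 in the Vgll3 and 13.9% ± 1.38 in the Ccne1 libraries. Lgmn held 12.8% ± 1.72 in the Vgll3 and 5.78% ± 0.502 in the Ccne1 libraries, while Ctsb held 28.2% ± 0.493 in the Vgll3 and 29.8% ± 0.948 in the Ccne1 libraries. The shares of Ctsl and Ctsz did not overlap between the groups, with Ctsl at 22.0% to 26.2% in Vgll3 and 48.0% to 50.6% in Ccne1 libraries. Shares depend on the gene length used, here the merged exons of each gene. With the longest protein-coding transcript of the basic annotation instead, an alternative added after the data were seen, Ctsl held 22.0% in the Vgll3 and 45.6% in the Ccne1 libraries. For Ctsl this changed the length only from 6489 to 6168 bases, so it cannot show how far the shares depend on length.

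**Figure D3:**
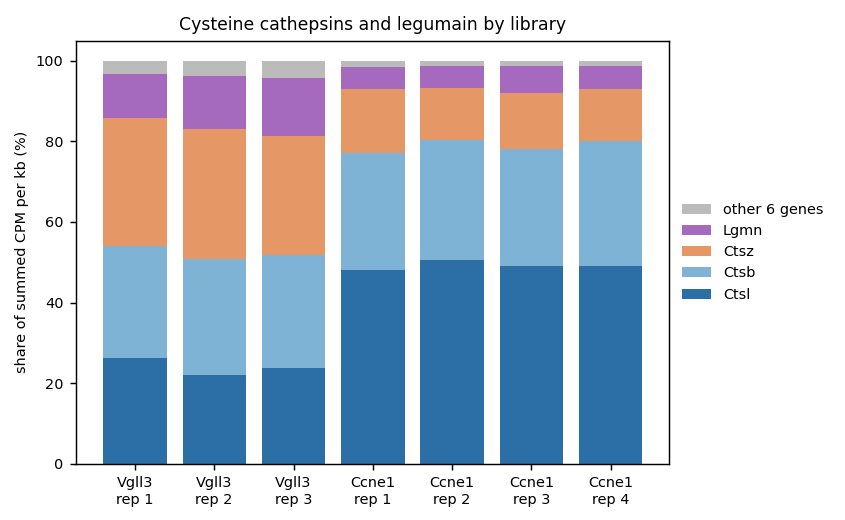
Share of each gene in the summed CPM per kb of the 10 cysteine cathepsin and legumain genes, in percent, 1 bar per library with the 3 Vgll3 libraries left of the 4 Ccne1 libraries. The Ctsl part is 22.0% to 26.2% in Vgll3 and 48.0% to 50.6% in Ccne1 libraries, and the Ctsz and Lgmn parts are larger in the Vgll3 libraries.

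The other 3 peptidases all fell. Ctsa, the serine carboxypeptidase that also protects neuraminidase 1 and beta-galactosidase, had 96.2, 78.3 and 90.9 CPM in the Vgll3 and 184, 206, 211 and 179.6 CPM in the Ccne1 libraries (2.21-fold lower, log2 fold change −1.14, SE 0.10, edgeR adjusted p = 3.18e-05). Pltp on the other strand overlaps 10.5% of its exon bases. Ctsd, the main aspartic protease, was 212 ± 14.1 CPM in the Vgll3 and 384 ± 15.3 CPM in the Ccne1 libraries, and Tpp1, a tripeptidyl peptidase, 76.7 ± 11.04 CPM in the Vgll3 and 140.2 ± 12.6 CPM in the Ccne1 libraries (edgeR adjusted p = 3.7e-05 and 0.000259). The Ctsd value is uncertain, because 34.4% of its exon bases also belong to Gm49369 on the same strand, among which the read estimate can be split. The gene of neuraminidase 1, Neu1, which removes sialic acid, fell as well, with 10.2, 10.4 and 13.1 CPM in the Vgll3 and 29.8, 33.4, 26.2 and 27.2 CPM in the Ccne1 libraries (2.603-fold, log2 fold change −1.38, SE 0.13, edgeR adjusted p = 4.54e-05). Glb1, the beta-galactosidase of the same complex, was 54.7 ± 3.64 CPM in the Vgll3 and 59.8 ± 3.35 CPM in the Ccne1 libraries, with groups that overlapped, and was not called (edgeR adjusted p = 0.185).

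Among the 11 glycosidases, 8 fell and 1 rose. Gla, the alpha-galactosidase deficient in Fabry disease, had 15.1, 13.9 and 16.6 CPM in the Vgll3 and 37.2, 54.01, 46.8 and 49.6 CPM in the Ccne1 libraries (3.09-fold lower, log2 fold change −1.63 with SE 0.13, edgeR adjusted p of 2.67e-05). The 2 mannosidases of glycoprotein breakdown moved the same way. Manba, which cuts the beta-linked mannose, had 18.1, 18.8 and 24.8 CPM in the Vgll3 and 40.5, 60.4, 56.5 and 54.7 CPM in the Ccne1 libraries (2.58-fold lower, edgeR adjusted p = 0.000202). Man2b1, the alpha-mannosidase, had 17.9, 19.4 and 32.7 CPM in the Vgll3 and 51.9, 49.4, 51.1 and 45.1 CPM in the Ccne1 libraries (2.12-fold lower, edgeR adjusted p = 0.00278). In both, Vgll3 replicate 3 was the highest of its group and still below every Ccne1 library. Gaa, the acid glucosidase of glycogen, fell 1.79-fold, Naglu, which acts on heparan sulfate, 1.74-fold, and Hexa, a subunit of hexosaminidase, 1.49-fold (edgeR adjusted p = 6.27e-05, 3.74e-05 and 0.00126). Genes on the other strand overlap 12.8% of the exon bases of Hexa, 21.6% of those of Sgsh, 18.8% of those of Arsa, 32.3% of those of Arsb and 12.6% of those of Acp2. The overlapping genes of Hexa (Tmem202), Sgsh (Card14) and Acp2 (Ddb2) had 50, 72 and 799 counts over the 7 libraries together, and those of Arsa and Arsb were not analysed here.

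Idua, the iduronidase of heparan and dermatan sulfate, was 9.18 ± 3.15 CPM in the Vgll3 and 14.04 ± 1.28 CPM in the Ccne1 libraries, with overlap. Its call (edgeR adjusted p = 0.0326) was lost on omitting any one of Ccne1 replicates 1 to 3 and Vgll3 replicates 1 and 2 (edgeR adjusted p 0.0662 to 0.0955). Dgkq on the other strand overlaps 2.95% of the exon bases of Idua and had 3792 counts over the 7 libraries. The Idua value is therefore uncertain. Gusb, beta-glucuronidase, rose 1.32-fold to 36.9 ± 4.54 CPM in the Vgll3 libraries, against 28.1 ± 2.46 CPM in the Ccne1 libraries (edgeR adjusted p = 0.0118). That call ended without Vgll3 replicate 2 (edgeR adjusted p = 0.0528) and with the replicate number as a block (0.0760). Fuca1, the fucosidase, was 36.6 ± 0.629 CPM in the Vgll3 and 37.8 ± 1.97 CPM in the Ccne1 libraries and was not called (edgeR adjusted p = 0.576).

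**Figure D4:**
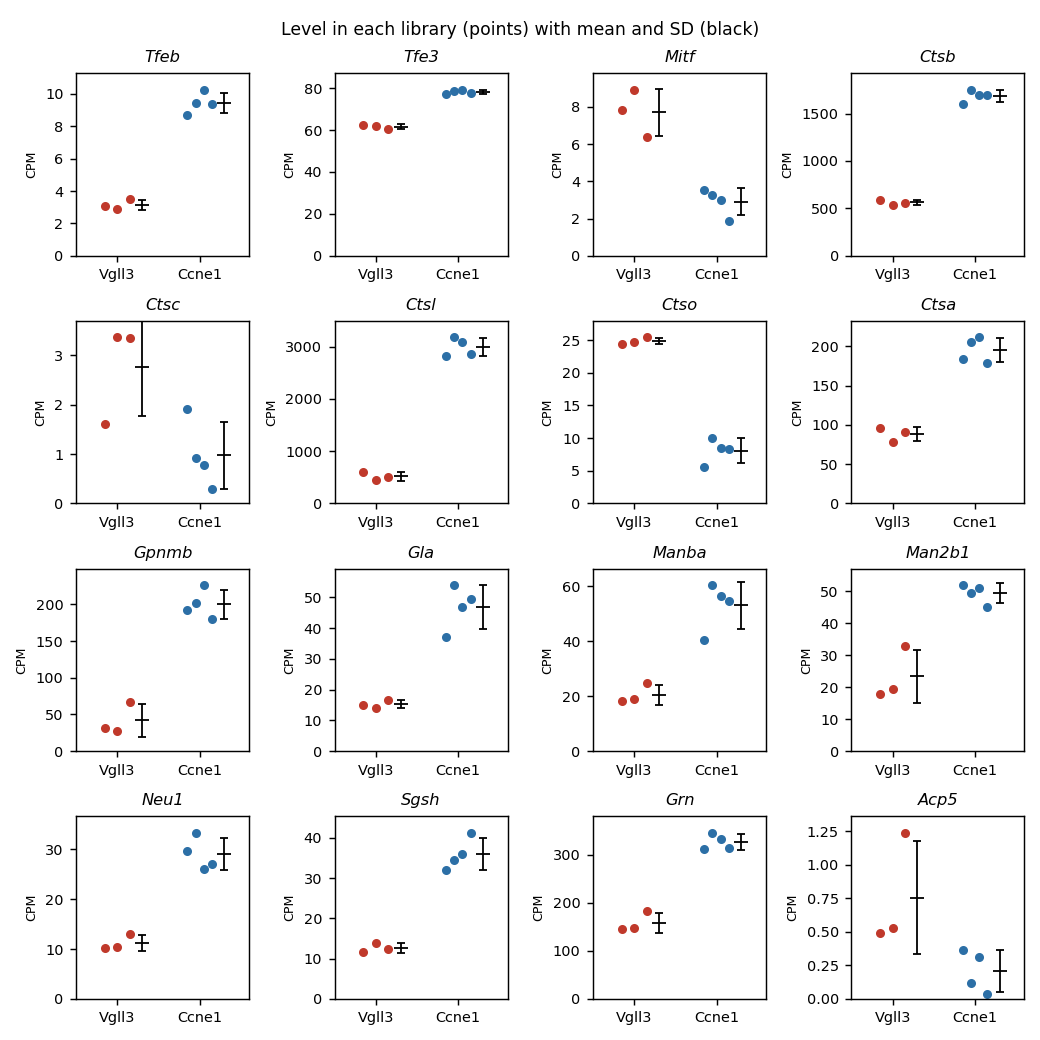
CPM in each library for Tfeb, Tfe3, Mitf and each lysosome gene called with at least a 2-fold difference, Vgll3 libraries in red on the left and Ccne1 libraries in blue on the right of each panel, with mean and SD in black and each vertical axis starting at 0. The groups overlap in the Ctsc panel and in no other; Ctsl lies at 442 to 599 CPM in Vgll3 libraries and at 2819 CPM or more in Ccne1 libraries.

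Sulfatases, which strip sulfate from glycosaminoglycans and sulfolipids, were divided between 2 that fell and 2 that were not called. Sgsh, the heparan N-sulfatase, had 11.6, 13.9 and 12.3 CPM in the Vgll3 and 32.03, 34.6, 36.04 and 41.2 CPM in the Ccne1 libraries (2.86-fold lower, log2 fold change −1.52, SE 0.11, edgeR adjusted p = 1.55e-05). Arsa, which acts on sulfatide, fell 1.59-fold, to 119 ± 6.79 CPM in Vgll3 against 188 ± 7.58 CPM in Ccne1 libraries (edgeR adjusted p = 8.87e-05). Arsb, which acts on dermatan sulfate, was 70.6 ± 4.79 CPM in the Vgll3 and 70.4 ± 1.797 CPM in the Ccne1 libraries and was not called (edgeR adjusted p = 0.967). Ids, the iduronate sulfatase, was 48.6 ± 0.533 CPM in the Vgll3 and 45.5 ± 2.18 CPM in the Ccne1 libraries. Its groups did not overlap, by a margin under 1 CPM, but it was not called (edgeR adjusted p = 0.252).

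Of 7 enzymes and activators of lipid breakdown, 4 fell and 1 rose. Psap, which encodes the precursor of the 4 saposins that present sphingolipids to their hydrolases, had 631, 593 and 657 CPM in the Vgll3 and 970.3, 1250.1, 1129 and 1068 CPM in the Ccne1 libraries (1.76-fold lower, log2 fold change −0.82, SE 0.10, edgeR adjusted p = 0.000196). Grn, the gene of progranulin, which binds prosaposin, had 146, 146 and 182 CPM in the Vgll3 and 312, 345, 332 and 314 CPM in the Ccne1 libraries (2.06-fold lower, log2 fold change −1.04 with SE 0.10, edgeR adjusted p of 4.94e-05). The groups of both genes were well apart. The acid sphingomyelinase gene Smpd1 fell 1.55-fold and the acid ceramidase gene Asah1 1.35-fold (edgeR adjusted p = 0.000612 and 0.00158). Lipa, the lysosomal acid lipase that frees cholesterol from its esters, rose 1.63-fold. It had 29.9, 26.8 and 36.8 CPM in the Vgll3 and 16.8, 18.8, 22.98 and 17.98 CPM in the Ccne1 libraries (edgeR adjusted p = 0.00254). Ppt1, a depalmitoylase, was 59.4 ± 3.73 CPM in the Vgll3 and 61.4 ± 3.74 CPM in the Ccne1 libraries and was not called (edgeR adjusted p = 0.613). Cap1 on the other strand overlaps 3.51% of the exon bases of Ppt1 and had 105067 counts over the 7 libraries. The Ppt1 value is therefore uncertain. Gm2a, the activator of GM2 ganglioside breakdown, was uneven, with 2.87, 3.401 and 9.103 CPM in the Vgll3 and 3.003, 2.75, 4.12 and 3.16 CPM in the Ccne1 libraries (edgeR adjusted p = 0.194). Without Vgll3 replicate 3 its log2 fold change was −0.05, against 0.65 with all libraries.

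Of 8 membrane proteins, 6 fell, 0 rose and 2 were not called. The abundant glycoproteins of the limiting membrane had modest falls. Lamp1 was 536 ± 19.1 CPM in the Vgll3 and 846 ± 58.7 CPM in the Ccne1 libraries (1.58-fold lower), with an edgeR adjusted p of 0.000206. Lamp2 was 264 ± 24.7 CPM in the Vgll3 and 428 ± 47.1 CPM in the Ccne1 libraries (1.62-fold lower, edgeR adjusted p = 0.000746). The tetraspanin Cd63 was 643 ± 63.2 CPM in the Vgll3 and 814 ± 48.8 CPM in the Ccne1 libraries (1.27-fold lower, edgeR adjusted p = 0.013). The groups of these 3 genes did not overlap. Scarb2 (LIMP-2), an abundant protein of the lysosomal membrane, was 97.9 ± 9.76 CPM in the Vgll3 and 89.4 ± 6.58 CPM in the Ccne1 libraries and was not called (edgeR adjusted p = 0.248). Mcoln1, the calcium channel TRPML1, fell 1.42-fold (edgeR adjusted p = 0.0119), and Cln3, a protein lost in a childhood neuronal storage disease, 1.704-fold (edgeR adjusted p = 0.00231). Apobr on the other strand overlaps 7.65% of the exon bases of Cln3 and had 4833 counts over the 7 libraries, so the Cln3 value is uncertain.

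Gpnmb, a transmembrane glycoprotein of melanosomes, macrophages and osteoclasts (ENSMUSG00000029816, chromosome 6, 49036546 to 49070929), had the largest fall after Ctsl. It had 31.1, 27.2 and 67.5 CPM in the Vgll3 and 192, 202, 226 and 180.1 CPM in the Ccne1 libraries (4.78-fold lower, log2 fold change −2.26, SE 0.34, edgeR adjusted p = 0.00149). Vgll3 replicate 3 was the highest of its group and still far below the Ccne1 libraries. Mitf, known to drive Gpnmb in melanocytes and osteoclasts, moved in the opposite direction.

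Beside Gpnmb, other genes of the list are known from macrophages or osteoclasts. Cd68, a macrophage marker, was 3.96 ± 2.49 CPM in the Vgll3 and 5.03 ± 1.55 CPM in the Ccne1 libraries and was not called (edgeR adjusted p = 0.514). Without Vgll3 replicate 3 it was called lower (log2 fold change −0.98, edgeR adjusted p = 0.0427). Acp5, the tartrate-resistant phosphatase of osteoclasts, had 0.493, 0.529 and 1.24 CPM in the Vgll3 and 0.364, 0.115, 0.3097 and 0.0363 CPM in the Ccne1 libraries, where 3 counts stand for 0.0577 to 0.136 CPM. It was called higher (log2 fold change 1.90, SE 0.69, edgeR adjusted p = 0.0457), but the call was lost on omitting any one of Ccne1 replicates 2 to 4 and Vgll3 replicates 2 and 3 (edgeR adjusted p 0.0572 to 0.136), and without the low-count filter (0.0586). The call was lost too with the replicate number as a block. Acp2, the widely expressed lysosomal acid phosphatase, fell 1.66-fold to 30.6 ± 2.46 CPM in Vgll3, against 50.7 ± 4.54 CPM in Ccne1 libraries (edgeR adjusted p = 0.00027).

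Markers of other cells were measured beside these genes. Of 15 macrophage markers, 10 were tested, 1 was called higher and 1 lower, and their sum was 53.5 to 72.1 CPM in the Vgll3 and 86.5 to 109.7 CPM in the Ccne1 libraries. The call lower was Cd14 (6.39 ± 1.85 CPM in Vgll3 and 59.4 ± 7.89 CPM in Ccne1 libraries) and the call higher Mertk (45.7 ± 5.41 CPM in Vgll3 and 33.7 ± 1.24 CPM in Ccne1 libraries), which between them gave most of the sum. The macrophage receptors Csf1r and Adgre1 were 1.33 ± 0.936 and 0.0563 ± 0.0161 CPM in the Vgll3 and 1.08 ± 0.593 and 0.0878 ± 0.1099 CPM in the Ccne1 libraries. Of 7 osteoclast markers 3 were tested and 2 called lower. The 7 summed to 86.3 to 137.9 CPM in Vgll3 and 350.7 to 443 CPM in Ccne1 libraries, nearly all from Mmp9, Itgb3 and Nfatc1. Mmp9 was called lower, at 40.8 ± 10.2 CPM in Vgll3 and 257 ± 37.6 CPM in Ccne1 libraries. So was Itgb3, at 2.14 to 10.5 CPM in Vgll3 and 72.1 to 95.8 CPM in Ccne1 libraries. Nfatc1 was not called, at 61.1 ± 13.2 CPM in Vgll3 and 55.5 ± 7.59 CPM in Ccne1 libraries. Ocstamp, Calcr and Oscar were too low to be tested, with means of at most 0.233 CPM in either group, and Dcstamp was at 0 in every library. Of 6 melanocyte markers 1 was tested and 0 called, with sums of 0.729 to 3.85 CPM in Vgll3 and 0.618 to 1.04 CPM in Ccne1 libraries, and Slc45a2 was at 0 throughout. Of the other cell types, neutrophil markers summed to at most 1.71 CPM and lymphocyte markers to at most 5.92 CPM in any library, endothelial markers to 34.4 to 232 CPM in Vgll3 and 51.2 to 137.4 CPM in Ccne1 libraries with 0 of 8 called, and pericyte markers to 145.3 to 171.7 CPM in Vgll3 and 459 to 551 CPM in Ccne1 libraries. Of the 5 pericyte markers, Cspg4, which gave most of the sum, was called lower, at 139.6 ± 10.2 CPM in Vgll3 and 514 ± 42.4 CPM in Ccne1 libraries. Rgs5 and Notch3 were called higher: Rgs5 was 5.95 ± 1.89 CPM in Vgll3 and 0.543 ± 0.328 CPM in Ccne1 libraries, and Notch3 11.7 ± 5.24 CPM in Vgll3 and 4.002 ± 1.67 CPM in Ccne1 libraries. Erythroid markers summed to at most 2.25 CPM in Vgll3 and 10.3 CPM in Ccne1 libraries, with Hba-a1 and Hba-a2 called lower (edgeR adjusted p = 0.00241 and 0.011), and epithelial and adipocyte markers to at most 0.368 CPM in Vgll3 and 4.58 CPM in Ccne1 libraries, with Krt8 called lower (edgeR adjusted p = 0.000291). The part of these marker shifts in the lysosome genes was not tested.

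Of the 3 proton pump genes on the list, 2 fell. Atp6ap1, an accessory subunit, had 97.9, 87.8 and 97.8 CPM in the Vgll3 and 180.3, 200.4, 188 and 183 CPM in the Ccne1 libraries (1.99-fold lower, log2 fold change −0.99, SE 0.07, edgeR adjusted p = 1.65e-05). Atp6v1h, a subunit of the cytosolic V1 part, fell 1.46-fold (edgeR adjusted p = 0.00116). Atp6v0d2, the osteoclast form of the d subunit, was low and uneven, with 2.12, 0.3401 and 0.636 CPM in the Vgll3 and 1.59, 0.924, 1.64 and 1.16 CPM in the Ccne1 libraries. It was not called (edgeR adjusted p = 0.659) except without Vgll3 replicate 1, where its log2 fold change was −1.43 (edgeR adjusted p = 0.0405), and its log2 fold change was 0.07 without Vgll3 replicate 2. Of 18 further V-ATPase subunits tested, 13 fell and 1 rose, with a median log2 fold change of −0.57. Atp6ap2, an accessory subunit known as the prorenin receptor, had the largest of these falls, with 44.8, 41.5 and 61.9 CPM in the Vgll3 and 106, 114, 118 and 110.4 CPM in the Ccne1 libraries (2.27-fold lower, edgeR adjusted p = 0.000134). The rise was in Tcirg1, the a3 subunit, at 84.4 ± 9.07 CPM in Vgll3 and 71.3 ± 4.02 CPM in Ccne1 libraries (edgeR adjusted p = 0.0443). This call ended without any single library other than Vgll3 replicate 1 (edgeR adjusted p 0.0553 to 0.1496), with limma-voom (0.0501) and without the low-count filter (0.0703). With the replicate number as a block it ended as well (edgeR adjusted p = 0.181).

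Other lysosomal genes outside the list were read beside it. Of 28 further hydrolases and cofactors tested, 17 fell and 2 rose (median log2 fold change −0.44), and of 31 further membrane proteins 21 fell and 2 rose (median −0.55). Hyal1, a hyaluronidase, had 6.99, 4.35 and 4.58 CPM in the Vgll3 and 19.97, 31.4, 25.5 and 23.2 CPM in the Ccne1 libraries (4.69-fold lower, edgeR adjusted p = 7.23e-05), but 50.8% of its exon bases also belong to Naa80 on the same strand, so its value is uncertain. Man2b2, a mannosidase, rose 7.68-fold, to 10.7 ± 3.17 CPM in the Vgll3 against 1.42 ± 1.01 CPM in the Ccne1 libraries (edgeR adjusted p = 0.00172). Among membrane proteins, Glmp had 42.2, 40.7 and 54.02 CPM in the Vgll3 and 120.0, 161, 142 and 138 CPM in the Ccne1 libraries (3.07-fold lower, edgeR adjusted p = 2.56e-05). Tmem79 on the other strand overlaps 20.3% of the exon bases of Glmp and had 191 counts over the 7 libraries. The 2-pore cation channel gene Tpcn1 rose 1.798-fold to 100.1 ± 12.4 CPM in Vgll3, against 55.7 ± 3.37 CPM in Ccne1 libraries (edgeR adjusted p = 0.000106).

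Of 20 tested genes that sort enzymes to lysosomes, 7 were called higher and 7 lower (median log2 fold change −0.06), beside 25.1% higher and 26.8% lower over all genes. The 2 mannose 6-phosphate receptors went opposite ways. Igf2r, the large receptor that also clears insulin-like growth factor 2, had 354, 405 and 233 CPM in the Vgll3 and 85.1, 50.3, 89.5 and 42.8 CPM in the Ccne1 libraries, 4.95-fold higher in Vgll3 with no overlap (log2 fold change 2.31, SE 0.32, edgeR adjusted p = 0.00113). M6pr, the small receptor, named after its values were seen, fell 1.38-fold to 108 ± 8.66 CPM in Vgll3, against 148 ± 2.87 CPM in Ccne1 libraries (edgeR adjusted p = 0.000748). Cln8, which helps newly made enzymes leave the endoplasmic reticulum, had 13.7, 11.9 and 15.3 CPM in the Vgll3 and 53.5, 74.3, 60.4 and 64.4 CPM in the Ccne1 libraries (4.62-fold lower, edgeR adjusted p = 7.45e-06).

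The Rag, Ragulator, folliculin and mTORC1 genes, which set where TFEB and TFE3 reside in the cell, had 15 of 27 tested lower and 4 higher (median log2 fold change −0.32). Over all genes tested, 26.8% were called lower and 25.1% higher. Rragd, one of the Rag GTPases, had 1.24, 0.302 and 0.669 CPM in the Vgll3 and 4.14, 10.8, 6.41 and 6.43 CPM in the Ccne1 libraries (9.09-fold lower, log2 fold change −3.18, edgeR adjusted p = 0.00103), and its log2 fold change was −3.83 without Vgll3 replicate 1. Flcn and Fnip1, which encode folliculin and a partner protein and were named after their values were seen, fell 2.51-fold and 2.13-fold (edgeR adjusted p = 3.28e-05 and 0.00016). Sesn2, a leucine sensor upstream of mTORC1, rose 3.31-fold, with 75.8, 85.2 and 61.9 CPM in the Vgll3 and 19.9, 25.8, 22.2 and 21.7 CPM in the Ccne1 libraries (edgeR adjusted p = 1.44e-05). Rragd and Sesn2 both lie on chromosome 4, which had a median of 0.44 over all genes tested on it. The part of that shift in their values was not tested.

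Of 38 autophagy genes tested, 21 fell and 2 rose (median log2 fold change −0.22), beside 26.8% lower and 25.1% higher over all genes. Atg9b had the largest fall, with 6.45, 4.46 and 22.3 CPM in the Vgll3 and 99.8, 142, 93.6 and 128 CPM in the Ccne1 libraries (log2 fold change −3.40, edgeR adjusted p = 0.00448), and −4.37 without Vgll3 replicate 3. Nos3 on the other strand overlaps 7.45% of its exon bases. Tax1bp1, a cargo receptor, rose 1.55-fold to 171 ± 19.3 CPM in Vgll3, against 110.4 ± 7.15 CPM in Ccne1 libraries (edgeR adjusted p = 0.000481). Of 7 tested genes listed as protease inhibitors, 3 fell and 1 rose (median −0.50). Cst3, the secreted cathepsin inhibitor cystatin C, had 156, 145 and 155 CPM in the Vgll3 and 221, 219, 241 and 189.8 CPM in the Ccne1 libraries (1.43-fold lower, edgeR adjusted p = 0.00128). The rise was in Serpinb9, known as an inhibitor of granzyme B and not of cathepsins, at 10.8 ± 1.34 CPM in Vgll3 and 1.67 ± 0.277 CPM in Ccne1 libraries (edgeR adjusted p = 1.06e-05).

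**Figure D5:**
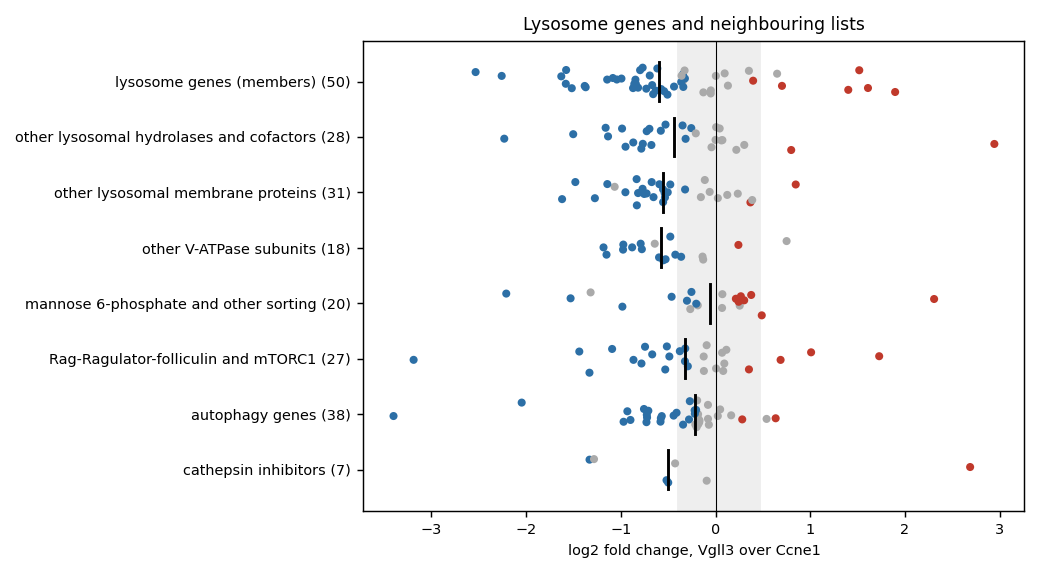
Log2 fold change, Vgll3 over Ccne1, of each tested gene in the lysosome list and in 7 neighbouring lists, with the number of genes in brackets; blue points were called lower in Vgll3, red higher, grey not called, black bars are list medians, and the grey band spans the middle quartiles of all genes tested. The medians run from −0.59 for the lysosome genes to −0.06 for the sorting genes.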

How the data were processed

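The authors deposited estimated counts by Ensembl gene ID, with a column for each library and no scaling. Salmon and mm10 are named in the submitters' processing notes, while its version, the annotation and the strand setting were not given in the sources used here. All values were whole (0 needed rounding). Symbols, bounds and merged exon lengths came from GENCODE M21 (GRCm38, equal to mm10), which matched 35493 of 35727 genes; promoters came from RefSeq (GRCm38.p6). Groups and replicate numbers came from the sample titles.

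Genes were tested with edgeR 4.0.16 in R 4.3.3 (filterByExpr, TMM, robust quasi-likelihood F test, model as the only term), with Benjamini-Hochberg adjustment over all 13740 genes at 0.05. Log2 fold changes are Vgll3 over Ccne1, with SE the absolute log2 fold change over the square root of F. Alternatives were DESeq2 1.42.0, its size factors within edgeR, limma-voom (limma 3.58.1), no low-count filter, each library left out, and the replicate number as a block. The fit was also run on simulated counts made from the observed means and the fitted dispersions, with 200 genes changed. It recovered 42.2% of seeded 1.5-fold, 71.2% of 2-fold and 92.2% of 4-fold changes, and 4.32% of its calls were false. The simulation gave 139 calls and the real data 7133, so its adjusted threshold was stricter. These recoveries therefore do not carry over to the real fit. A gene that was not called may still differ. No 2 libraries of a group agreed within sampling noise (chi-square 9.14 to 67.8 per degree of freedom).

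The members and lists were chosen with earlier results of these data known. Values in every library are given for Tfeb, Tfe3, Mitf and each called member at least 1 log2 unit apart. Of each neighbouring list, the most raised and most lowered called gene is named where its higher model averaged 5 CPM or more; genes outside this rule are said to be so. A count of 3, the limit that a count of 0 allows, is 0.0577 to 0.136 CPM and covers counting error only.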

Additional observations from a re-analysis of the deposited data

How the results depend on the processing

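Of the 39 called lysosome genes, 31 kept their direction and call under all 12 alternatives, and none of the 39 changed sign. The 8 others were Acp5, Cd63, Ctsc, Ctsz, Gusb, Idua, Lgmn and Mcoln1. Over the libraries left out in turn, 3 to 6 lysosome genes were called higher and 30 to 33 lower, with a median log2 fold change of −0.66 (without Vgll3 replicate 3) to −0.54, and 6023 to 7334 genes were called in all. The same replicate numbers did not go with shared deviations (r = −0.17 to −0.10 over the 3 numbers the groups share, with no Vgll3 library closest to the Ccne1 library of its own number), so the numbers were not taken to pair the libraries. With the replicate block, 3 lysosome genes were called higher, 31 lower, their median was −0.66, and 4841 genes were called in all; Cd63 and Mcoln1 lost their calls under that alternative and no other. DESeq2 called 7464 genes and limma-voom 7224, and both called 6 lysosome genes higher and 33 lower. The median over all genes was 0.10 with DESeq2 and between −0.01 and 0.08 under the other alternatives. Signs turned only in genes that were not called. Arsb was −0.000434 with limma-voom and −0.0069 without the low-count filter. With single libraries left out, the log2 fold changes ran from −0.057 to 0.041 for Arsb, from −1.14 to 0.045 for Ctsk (above 0 without Ccne1 replicate 1 or Vgll3 replicate 2), from −0.052 to 1.15 for Ctss and from −0.051 to 0.94 for Gm2a (both below 0 without Vgll3 replicate 3), and from −1.43 to 0.068 for Atp6v0d2 (above 0 without Vgll3 replicate 2). The causes were not tested. The lowest library had 1 count of Acp5, 8 of Ctsc, 9 of Atp6v0d2 and 10 of Ctss, so counting error is wide for these genes.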

Other observations

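Per kilobase of merged exons, Psap (228 CPM per kb), Lamp1 (200.4) and Cd63 (175) stood highest among the lysosome genes in the Vgll3 libraries, and Ctsl (460.3 CPM per kb), Psap (402) and Lamp1 (316) in the Ccne1 libraries. Ctsl ranked 7 of 51 in the Vgll3 and 1 of 51 in the Ccne1 libraries. As with the cathepsin shares, this order depends on the gene lengths used. In the Vgll3 libraries, neighbours in this order such as Ctsb (93.2 ± 4.56 CPM per kb) and Ctsd (90.2 ± 5.98), or Ctsl (79.6 ± 12.1) and Asah1 (78.5 ± 3.47), did not differ beyond their spread. In the Ccne1 libraries, Ctsl (460 ± 26.6 CPM per kb) and Psap (402 ± 42.7) headed the order.

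Among the 3 Vgll3 libraries, replicate 3, which stood apart across all genes, was the highest for 25 of the 50 tested lysosome genes, the lowest for 11 and between the others for 14. These shares were not computed over all genes tested, so they cannot be read as particular to the lysosome genes. Its Gpnmb was 67.5 CPM, against 31.1 and 27.2 CPM in the other two, and its Man2b1 32.7 CPM, against 17.9 and 19.4 CPM.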
